A study of Mus musculus with 2 samples.

Results

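The 48 proteasome genes studied here are the protein-coding genes of GENCODE M21 whose symbol is Psma to Psmg followed by digits alone, out of 21728 protein-coding symbols on the autosomes and the X chromosome. They were chosen by name and not by a measured value. Of 50 symbols that start this way, Psmc3ip and Psme2b carry letters after the digits and are given apart. Chromatin accessibility was measured by DNase-seq, which maps the cuts that the nuclease DNase I makes in exposed DNA, in whole ovary of female B6CASTF1/J mice, the F1 hybrids of C57BL/6 and CAST mice, aged 18 to 20 months. There was 1 group with 2 libraries, labelled biological replicates 1 and 2, with no treatment, no younger animals and no other tissue. The labels name separate biosamples but a single donor record for both libraries, and do not say whether 1 animal or several were used. All values are therefore given per library, with an SD over n = 2 that may be technical, and no p-value can be drawn from this design.

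The proteasome degrades ubiquitin-tagged proteins. Its 20S core is a barrel of alpha subunits (Psma genes), which gate the channel, and beta subunits (Psmb genes), of which those encoded by Psmb5, Psmb6 and Psmb7 cut peptide bonds. Its 19S cap holds the ATPases of the Psmc genes, which unfold substrates, and the Psmd subunits, which bind and deubiquitinate them. In immune cells and under interferon, the subunits encoded by Psmb8, Psmb9 and Psmb10 take the places of Psmb5, Psmb6 and Psmb7 in newly built cores, and this immunoproteasome makes many of the peptides shown on MHC class I molecules. Psma8 and Psmb11 encode an alpha subunit of the testis and a beta subunit of the thymic cortex. The remaining 43 genes are called constitutive here.

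The peak lists of the libraries held 95898 and 83982 peaks, and read depth is unknown because the lists give scaled signal and not counts. A gene had a promoter peak when a peak came within 500 bp of any of its annotated starts, and its promoter signal is the authors' scaled signal of the strongest such peak. Among the 13527 genes with a promoter peak in both libraries, the median signal was 3.96 in replicate 1 and 4.06 in replicate 2, and the quartiles were 1.94 and 6.73 in replicate 1 and 1.82 and 7.89 in replicate 2. Of the ovarian markers, 9 of 12 had a promoter peak in both libraries, against 62.3% of all protein-coding genes: 3 of 4 granulosa genes, 3 of 3 theca and steroidogenic genes, 2 of 2 stromal genes and 1 of 3 oocyte genes, Gdf9. Fshr had a peak in 1 library, Zp3 and Nobox had none, and the peaks of Tcf21 (1.16 and 0.891) and Amh (1.11 and 1.87) were weak. Of the markers of immune cells, which express immunoproteasome genes strongly, none had one in both libraries (0 of 6 macrophage, 0 of 4 T cell, 0 of 3 B cell genes, and not Ptprc). Of the macrophage markers, 3 had a weak peak in replicate 1 alone: Cd68 at 0.937, Cd14 at 0.786 and Lyz2 at 0.334. How far immune cells contribute to the signal at Psmb8, Psmb9 and Psmb10 was not tested. Since the tissue was taken whole, fewer cells of a type and less signal per cell cannot be told apart.

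Nearly every proteasome gene was accessible. A promoter peak was present in both libraries at 46 of the 48 genes, against 62.3% of all protein-coding genes. In the shorter peak lists, whose background was 57.9%, the count was again 46. The exceptions were the genes of the testis and the thymus, Psma8 and Psmb11, which had no promoter peak in either library and no base listed with a false discovery rate under 0.05 within 500 bp of their 5′ end. Psmb11 lies 3411 bp from Psmb5, measured between their 5′ ends, and Psmb5 had a peak in both libraries. At the 46 genes with peaks, between 363 and 946 of the 1001 bases within 500 bp of the start nearest to the strongest peak were listed under 0.05 in replicate 1, and between 302 and 1001 in replicate 2. All 3 immunoproteasome genes had promoter peaks in both libraries.

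The promoter cores of the 6 catalytic subunit genes are shown first, because the comparison of the constitutive with the immunoproteasome genes turns on them. Each sequence is the stretch shared by the strongest peaks of both libraries, read 5′ to 3′ on the strand of the gene from assembly GRCm38, and capitals mark bases that lie in a footprint of both libraries. A footprint is a short run of bases inside a peak that was cut less than its surroundings, as under a bound protein. The core of Psmb9 is also that of Tap1, and the core of Psmb10 lies inside an intron of the gene.
Psmb5 chr14:54617941-54618120 -: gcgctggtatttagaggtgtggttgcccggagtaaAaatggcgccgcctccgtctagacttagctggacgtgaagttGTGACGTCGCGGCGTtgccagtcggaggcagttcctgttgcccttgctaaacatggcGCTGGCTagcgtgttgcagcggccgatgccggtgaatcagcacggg
Psmb6 chr11:70525241-70525420 +: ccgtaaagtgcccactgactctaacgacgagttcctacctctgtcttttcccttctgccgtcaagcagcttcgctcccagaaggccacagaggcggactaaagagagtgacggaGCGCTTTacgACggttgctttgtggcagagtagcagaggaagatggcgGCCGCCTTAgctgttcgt
Psmb7 chr2:38643901-38644080 -: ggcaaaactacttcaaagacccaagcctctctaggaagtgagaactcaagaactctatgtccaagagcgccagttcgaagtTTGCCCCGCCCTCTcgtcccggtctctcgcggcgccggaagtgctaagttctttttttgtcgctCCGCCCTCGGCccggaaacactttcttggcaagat
Psmb8 chr17:34197581-34197760 +: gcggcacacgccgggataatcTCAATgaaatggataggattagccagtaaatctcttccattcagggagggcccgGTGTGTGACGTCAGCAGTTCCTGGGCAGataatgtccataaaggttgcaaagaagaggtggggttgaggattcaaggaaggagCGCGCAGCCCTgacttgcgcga
Psmb9 chr17:34187341-34187520 -: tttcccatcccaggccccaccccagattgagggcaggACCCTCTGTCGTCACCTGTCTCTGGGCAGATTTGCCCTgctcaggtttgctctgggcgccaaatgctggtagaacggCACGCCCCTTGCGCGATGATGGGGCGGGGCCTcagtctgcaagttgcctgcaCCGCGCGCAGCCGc
Psmb10 chr8:105937001-105937220 -: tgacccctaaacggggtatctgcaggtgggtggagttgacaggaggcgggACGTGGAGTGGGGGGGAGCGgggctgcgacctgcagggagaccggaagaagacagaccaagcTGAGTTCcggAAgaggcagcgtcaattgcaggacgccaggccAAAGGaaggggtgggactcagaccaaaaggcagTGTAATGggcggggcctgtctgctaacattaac

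The constitutive catalytic genes were of middling accessibility. Psmb5, which encodes the chymotrypsin-like subunit, had a promoter signal of 3.18 in replicate 1 and 2.93 in replicate 2. Psmb6, for the caspase-like subunit, had 5.06 and 7.60. Psmb7, for the trypsin-like subunit, had 3.49 and 3.28. Psmb5 and Psmb7 lay below the median of all genes with a promoter peak in both libraries, and Psmb6 above it in both.

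The immunoproteasome genes were at least as accessible at the level of their strongest promoter peak. Psmb8, whose product replaces that of Psmb5, had 4.97 and 3.84. Psmb9, whose product replaces that of Psmb6, had 8.71 and 9.17, which placed it above 86.9% and 80.6% of the 13527 genes. Psmb10, whose product replaces that of Psmb7, had 3.92 and 5.22. In each pair both values of the immunoproteasome gene lay above both values of its counterpart. The ratios were 1.57 and 1.31 for Psmb8 over Psmb5, 1.72 and 1.21 for Psmb9 over Psmb6, and 1.12 and 1.59 for Psmb10 over Psmb7. The median of Psmb5, Psmb6 and Psmb7 was lower than that of Psmb8, Psmb9 and Psmb10 by a log2 difference of -0.59 ± 0.11 (SD, n = 2 libraries). It was -0.37 with only the annotated 5′ end or only protein-coding starts counted, and -0.92 with promoter peaks summed. These are ratios between different loci in the same libraries, so they describe chromatin and not the amount of either protein.

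At the level of their strongest promoter peaks, the immunoproteasome genes lay within the range of the 43 constitutive genes. The median promoter signal of the constitutive genes was 5.06 in replicate 1 and 5.42 in replicate 2, and that of the immunoproteasome genes was 4.97 and 5.22. The log2 difference of the medians, constitutive minus immunoproteasome, was 0.02 in replicate 1 and 0.06 in replicate 2. Of the 43 constitutive genes, 12 and 11 lay below the lowest immunoproteasome gene and 5 and 6 above the highest, so the sets overlapped. With promoter peaks summed in place of the strongest taken, the difference turned to -0.12. With only the annotated 5′ end or only protein-coding starts counted, it was 0.26, and Psmb10, at 0.958 and 0.719, then lay below the lowest constitutive gene in each library (Psmg2 at 2.31 and Psmc1 at 1.64).

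**Figure D1:**
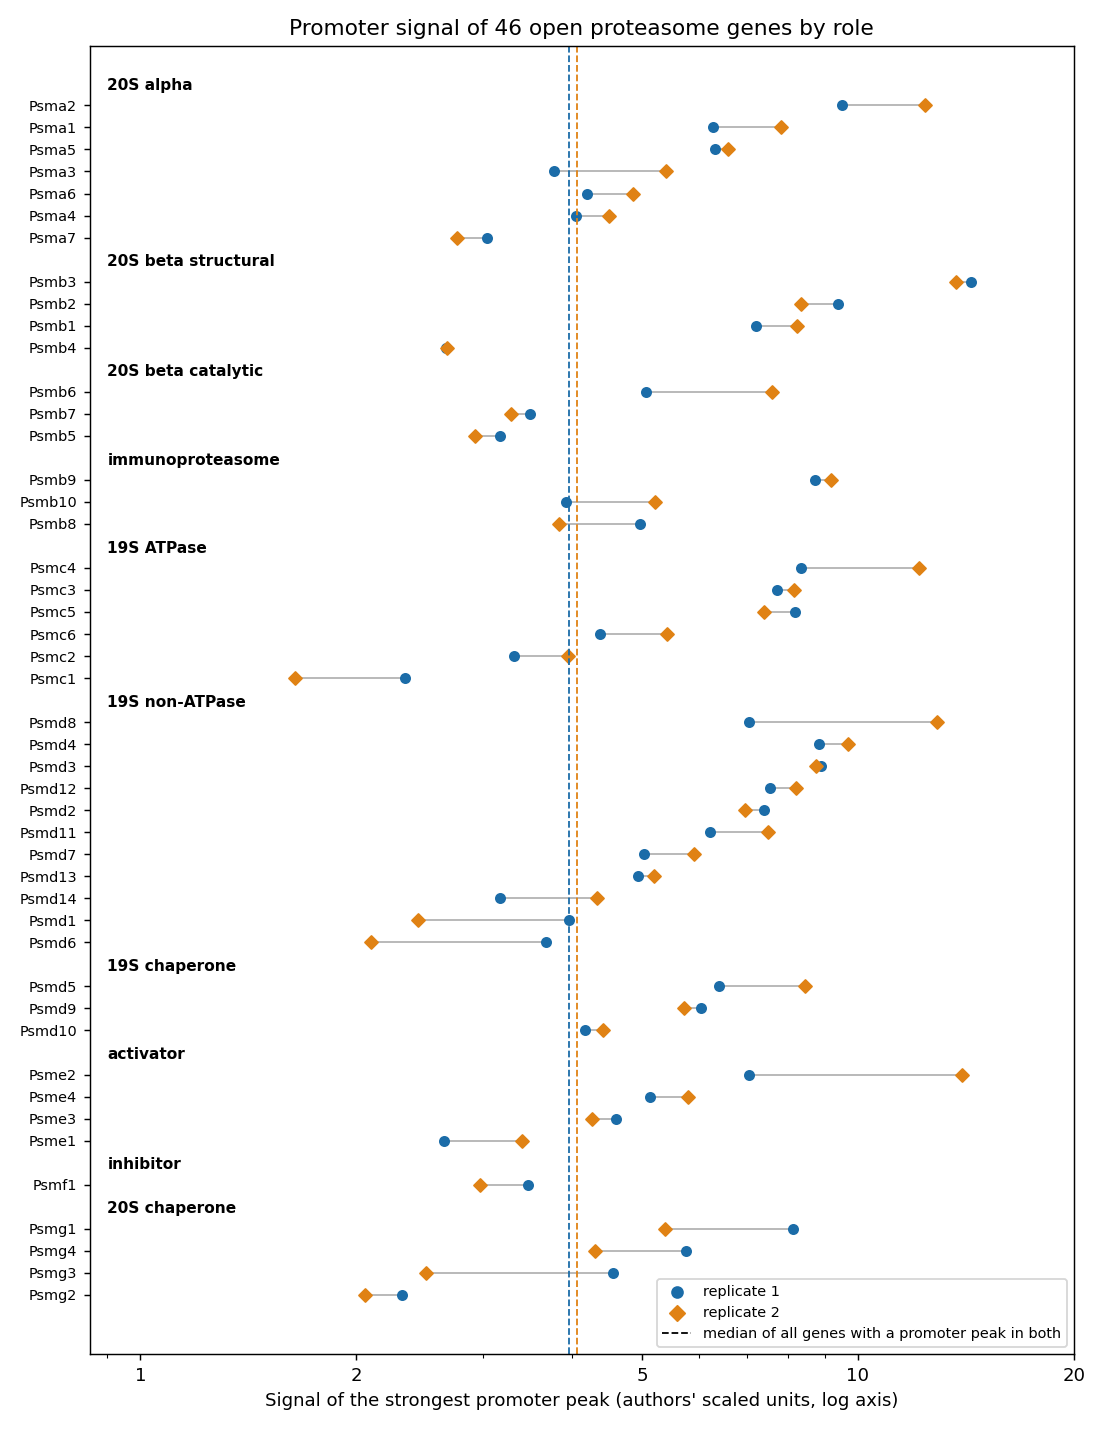
Signal of the strongest promoter peak (horizontal log axis, authors' scaled units) of the 46 proteasome genes with a promoter peak in both libraries, grouped by role; circles are replicate 1, diamonds replicate 2, and dashed lines the medians of all genes with a promoter peak, 3.96 and 4.06. Psmb5 and Psmb7 lie left of both lines, while Psmb3 lies farthest right in replicate 1 at 14.4.

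Psmb10 differed from the other 45 genes in where its peak was. Its strongest peak was centred 1334 bp from its protein-coding start, in an intron, upstream of a start that the annotation gives only to a retained-intron transcript. In replicate 1 this peak was 260 bp wide and in replicate 2 it was 240 bp wide. Around the protein-coding start itself, within 500 bp, the strongest peak had a signal of 0.958 in replicate 1 and 0.719 in replicate 2. Those values lay above only 10.3% and 6.71% of 13298 genes measured at protein-coding starts. Counted there, Psmb10 was below Psmb7 (3.49 and 3.28) in both libraries, so the direction of that pair depends on which start is taken. The other 45 genes had the same signal whether all starts or only protein-coding ones were used. This alternative was chosen after the peaks of Psmb10 were seen.

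**Figure D2:**
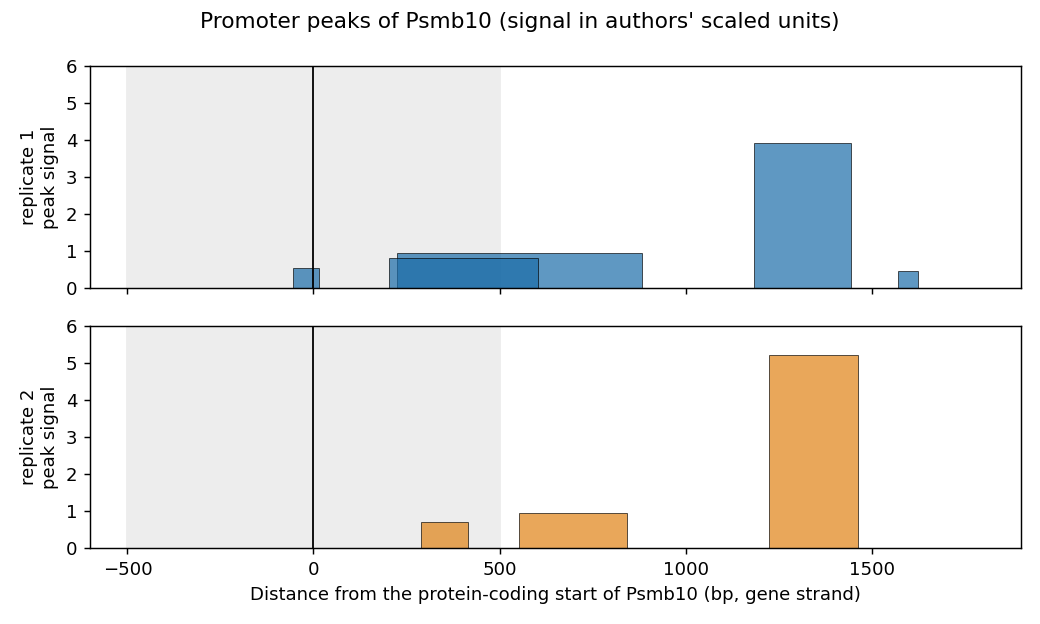
Promoter peaks of Psmb10 as bars, with peak signal (authors' scaled units) against distance in bp from the protein-coding start, in replicate 1 (above) and replicate 2 (below); grey marks 500 bp either side of that start. The tall bar on the right is the intronic peak at 3.92 and 5.22, and the bars within the grey band are under 1.

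Psmb8 and Psmb9 lie 9957 bp apart in the MHC class II region, and their peaks sat at annotated starts. The Psmb8 core was centred 51 bp upstream of a protein-coding start. The Psmb9 core was centred 65 bp upstream of its nearest annotated start and 211 bp from the nearest protein-coding one. Tap1, which encodes a subunit of the transporter that carries peptides into the endoplasmic reticulum, starts within 500 bp of the same peak, so its promoter signal was the same 8.71 and 9.17. The signal of this peak cannot be divided between Psmb9 and Tap1.

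The footprints at Psmb8 and Psmb9 were alike in both libraries. At Psmb8, 3 footprints in each library overlapped one another, and the longest covered positions -66 to -38 in replicate 1 and -65 to -38 in replicate 2, counted from 0 at the start with negative positions upstream. At Psmb9, 3 footprints in each library overlapped, and the longest covered -119 to -81 and -118 to -80. Bases in footprints of both libraries made up 46.1% of the Psmb9 core and 24.4% of the Psmb8 core. The corresponding share was 18.6% for Psmb10, 13.9% for Psmb7, 12.8% for Psmb5 and 10% for Psmb6. Over the cores of the constitutive genes it ran from 0% at Psmd8 to 42.5% at Psmg1. Psmb8 and Psmb10 lay inside that range, and the structural genes Psmb2 (26.1%) and Psmb3 (26.7%) exceeded both. No such share over all genes is given here.

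**Figure D3:**
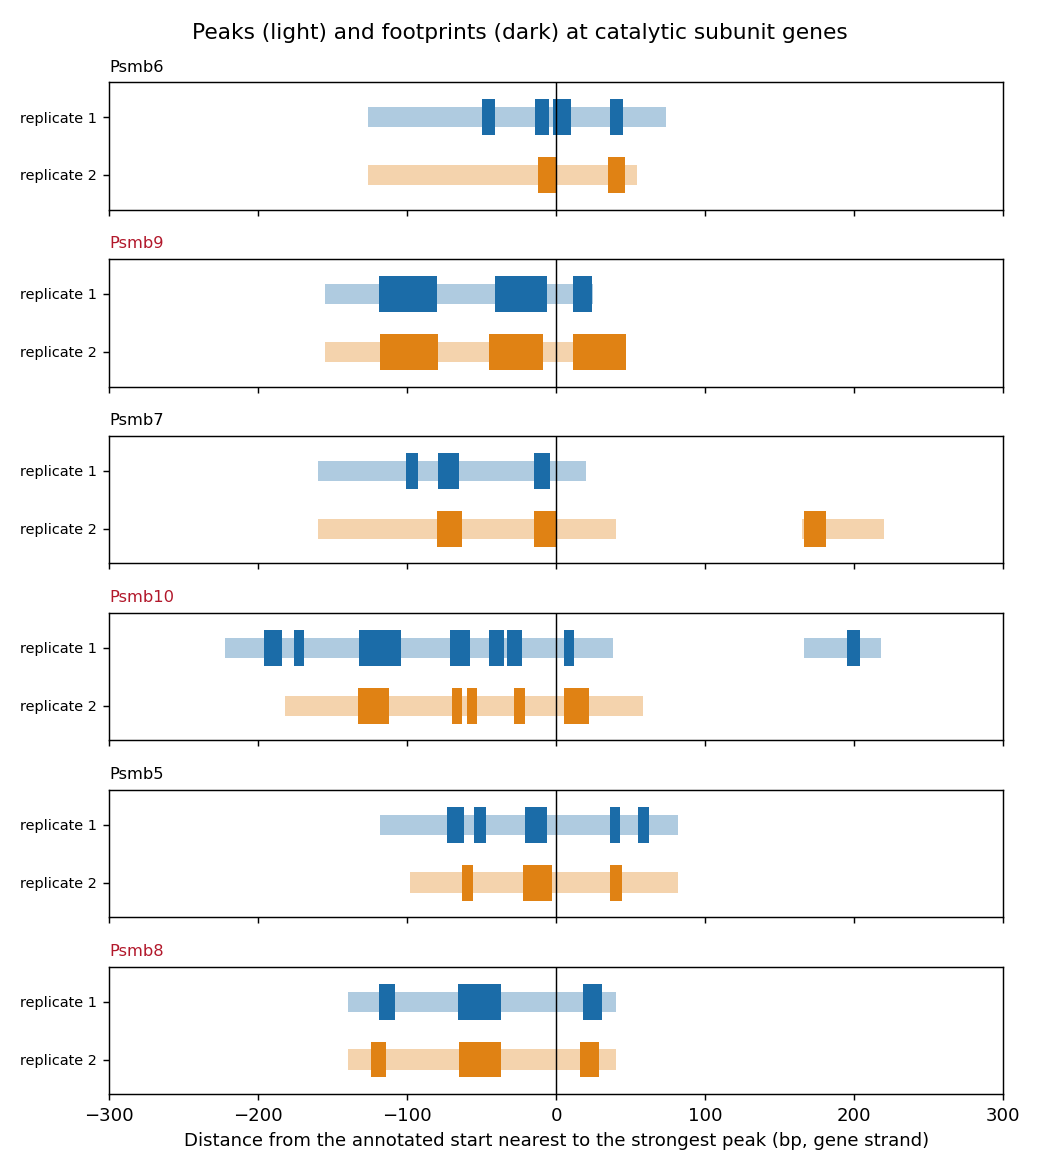
Peaks (light bars) and footprints (dark bars) of both libraries at the 6 catalytic subunit genes, against distance in bp from the annotated start nearest to the strongest peak, with upstream to the left. The long footprints at Psmb8 (-66 to -38) and Psmb9 (-119 to -81) recur in replicate 2 within a few bp, and names in red are immunoproteasome genes.

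Among the other subunits of the 20S core, the structural beta genes had the highest signal. Psmb3 had 14.4 in replicate 1 and 13.7 in replicate 2, above 99.1% and 92.6% of the 13527 genes. Psmb2 had 9.39 and 8.34. Psmb4 was the lowest of this role at 2.67 in both libraries, below the all-gene median. The median over these 4 genes was 8.29 and 8.28. The 7 alpha subunit genes were spread around lower medians of 4.20 and 5.41. Psma2 led them with 9.49 and 12.4. Psma1 was the next by mean rank with 6.29 and 7.81, and Psma7 was lowest with 3.05 and 2.77. The values of Psma2 lay above those of the other alpha genes in both libraries. Its peak also lies within 500 bp of the start of Mrpl32.

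Genes of the 19S cap had higher medians than the catalytic genes. The 6 ATPase genes had medians of 6.04 and 6.42. Psmc4 had 8.33 and 12.2, Psmc3 had 7.72 and 8.14, and Psmc1 was lowest with 2.34 and 1.64. The 11 non-ATPase genes had medians of 6.21 and 6.96. Psmd4, which encodes a ubiquitin receptor, had 8.82 and 9.68. Psmd8, for a lid subunit, had 7.04 and 12.9, and Psmd6, also for a lid subunit, was lowest by rank with 3.67 and 2.09. The 3 genes of chaperones that assemble the cap, Psmd5, Psmd9 and Psmd10, had 6.41 and 8.45, 6.05 and 5.72, and 4.17 and 4.42. All 3 exceeded the all-gene median in both libraries.

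The regulators of the 20S core spanned most of the range. Psme1 and Psme2 encode the alpha and beta subunits of the interferon-inducible activator PA28. Psme1 had 2.65 and 3.41, below the all-gene median in both libraries. Psme2 had 7.04 and 14.0, from a peak that also lies within 500 bp of the start of Rnf31. Both values of Psme2 lay above both of Psme1, and the ratio between the libraries was the widest of the 46 genes at Psme2. Psme4, which encodes the activator PA200, had 5.13 and 5.80. Psmf1, which encodes the inhibitor PI31, had 3.47 and 2.97. Among the chaperones of core assembly, Psmg1 had 8.12 and 5.38, Psmg4 had 5.76 and 4.30, and Psmg2 had 2.31 and 2.06. All 4 Psmg genes were lower in replicate 2.

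Over all 46 genes with a promoter peak, the median signal was 5.04 in replicate 1 and 5.42 in replicate 2. This median corresponded to the 61.3 and 61.2 percentiles of the 13527 genes. In both libraries, 30 of the 46 lay above the all-gene median and 12 above the upper quartile. The signal of every one of the 46 was within 2-fold between libraries, as it was for 98.1% of all genes with a promoter peak. On the log2 scale, replicate 2 exceeded replicate 1 by a median of 0.08 (SD 0.39) over the members and by 0.11 (SD 0.42) over all genes. The members' ratio ran from -0.87 at Psmg3, with 4.56 and 2.50, to 0.99 at Psme2.

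**Figure D4:**
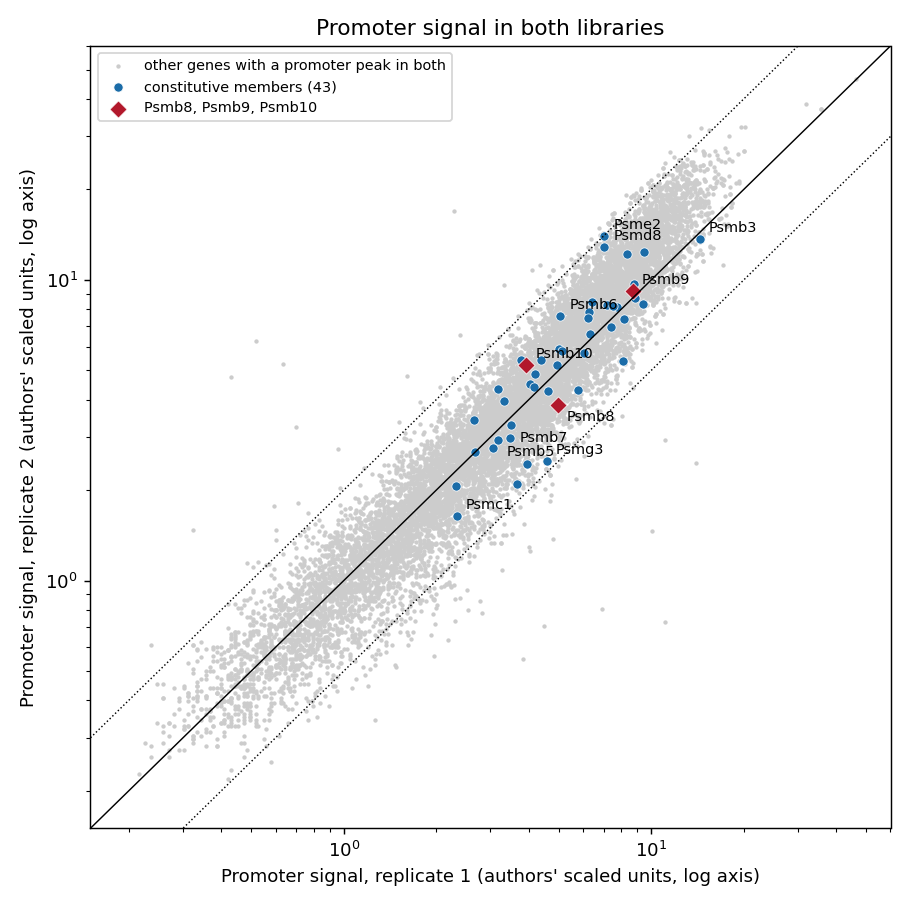
Promoter signal in replicate 2 against replicate 1 (log axes, authors' scaled units) for 13527 genes, with the 43 constitutive proteasome genes in blue and Psmb8, Psmb9 and Psmb10 as red diamonds; the solid line marks equal values and dotted lines 2-fold. All 46 proteasome genes fall between the dotted lines, with Psme2 closest to the upper one.

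Most proteasome promoter peaks were centred near an annotated start. Closeness is partly built in, because a promoter peak had to come within 500 bp of any annotated start. No share over all genes is given for these positions, so they are not a trait of the proteasome genes. The strongest peaks of the 2 libraries overlapped at 45 of 46 genes, the exception being Psmg2, whose strongest peaks were at different places. At those 45 genes, the stretch shared by both was centred within 100 bp of an annotated start at 41 and upstream of it at 34, with a median position of -25 bp. It lay within 300 bp of a protein-coding start at 44 of them, and the exception was Psmb10. At 4 other genes it lay at an internal protein-coding start rather than at the annotated 5′ end: 14553 bp downstream in Psma6, 4006 bp in Psmd5, 58777 bp in Psmd9 and 2876 bp in Psmf1. Those 4 genes had no peak at the annotated 5′ end.

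For 12 of the 46 genes (26.1%), the peak also lay within 500 bp of the start of another protein-coding gene, as it did for 18.1% of all genes with a promoter peak. These were Psma2 with Mrpl32, Psma4 with AY074887, Psma7 with Ss18l1, Psmb1 with Tbp (the TATA-binding protein), Psmb9 with Tap1, Psmc2 with Dnajc2, Psmc5 with Ftsj3, Psmd10 with Atg4a, Psmd13 with Sirt3, Psme2 with Rnf31, Psmg2 with Cep76 and Psmg3 with Gm26938. Without these genes, the median of the constitutive genes was 5.60 as a mean of both libraries, against 5.24 with them.

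Footprints lay in the promoter peaks of 45 of the 48 genes in both libraries, where the background over all protein-coding genes was 59.7%. Only footprints inside promoter peaks were counted, so this contrast largely repeats the one in promoter peaks. Among the 13527 genes with a promoter peak in both libraries, 12966 held a footprint in both, against 45 of the 46 members with peaks. Among genes with peaks, no large contrast therefore remained. Of the 46 genes with peaks, the exception was Psmd8, which had 0 in replicate 1, where its peak was 60 bp wide, and 4 in replicate 2. The promoter peaks held 208 footprints in replicate 1 and 223 in replicate 2, with median widths of 11.5 and 12 bp, against 10 bp for all footprints of each library. Over the 46 genes the median number was 5 in replicate 1 and 4 in replicate 2. Over all genes with a promoter peak it was 5 in both libraries. The highest number among the members was 12, at Psme3 in replicate 2. Within the strongest peaks, 127 of 186 footprints of replicate 1 (68.3%) and 131 of 188 of replicate 2 (69.7%) overlapped one of the other library. Footprint calls depend on depth, which is unknown here, so a missing footprint is not evidence that no protein was bound.

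Exact matches to 12 short consensus sequences were sought on both strands from 250 bp before to 50 bp after the start nearest the strongest peak, in the members and in all 13527 genes with a promoter peak. A match counts as lying in a footprint when it shares at least 1 bp with one in both libraries. Because these are descriptions of letters, a match is not a shown binding site. Matches of different sequences overlapped in 3 cases, between CNC-MAF and SP/KLF, NF-Y and CRE, and SP/KLF and ETS.

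CNC-MAF sites, searched as TGACNNNGC, are recognised by NFE2L1 and NFE2L2 with small MAF proteins, and NFE2L1 is known to raise proteasome gene expression when proteasome activity falls. The sequence was present at 7 of the 43 constitutive genes (16.3%), against 14.6% of all genes with a promoter peak. In footprints of both libraries it was present at 4 (9.30%), against 4.22% of all genes. These 4 were Psmb5, Psmb6, Psmd7 and Psmd9. At Psmb5 the match covered positions -20 to -12 and at Psmb6 positions -19 to -11, and in the cores above it stands in capitals at Psmb5 and runs into the capitals at Psmb6. The whole match lay inside footprints of both libraries at Psmb5 and Psmd9, and only part of it at Psmb6 and Psmd7. At Psmd7 the footprints of the libraries met opposite ends of the match and had no base of it in common. For whole matches no share over all genes is given, so the contrast with 4.22% holds only for overlaps of at least 1 bp. At Psmd9 an SP/KLF match at -26 to -21 overlapped the CNC-MAF match and also lay wholly inside footprints of both libraries. The core of Psmd9, with its match at -31 to -23, and those of Psmb2 and Psma2, which carry CRE and NRF1 matches, are shown for comparison.
Psmd9 chr5:123228121-123228300 +: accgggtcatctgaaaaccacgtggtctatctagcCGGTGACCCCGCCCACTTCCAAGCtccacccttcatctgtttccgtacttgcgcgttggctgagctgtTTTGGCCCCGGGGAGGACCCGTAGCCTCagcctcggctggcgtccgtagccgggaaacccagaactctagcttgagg
Psmb2 chr4:126677521-126677700 +: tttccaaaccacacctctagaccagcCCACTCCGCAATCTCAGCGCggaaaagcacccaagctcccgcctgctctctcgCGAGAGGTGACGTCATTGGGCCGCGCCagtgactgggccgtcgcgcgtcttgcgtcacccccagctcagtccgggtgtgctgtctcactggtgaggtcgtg
Psma2 chr13:14613001-14613240 +: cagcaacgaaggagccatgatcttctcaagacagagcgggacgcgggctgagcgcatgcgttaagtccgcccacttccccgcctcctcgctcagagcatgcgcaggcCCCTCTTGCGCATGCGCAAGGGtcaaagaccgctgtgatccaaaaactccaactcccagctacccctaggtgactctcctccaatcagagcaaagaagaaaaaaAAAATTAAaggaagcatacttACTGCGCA

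The ETS sequence, CCGGAAG, was the most frequent relative to all genes among those found at 10 or more members. Only the ETS, SP/KLF and NF-Y sequences reached that number. At fewer members, the YY1 sequence (9.30%, against 3.09%) and the IRF sequence described below (18.6%, against 6.85%) were more frequent still relative to all genes. It was present at 17 of 43 constitutive genes (39.5%), against 17.7% of all genes with a promoter peak, and lay in footprints of both libraries at 5 (11.6%, against 6.50%), namely Psmc1, Psmc6, Psmd7, Psme3 and Psme4. The SP/KLF sequence, GGGCGG, was present at 26 (60.5%, against 67.6%) and in footprints at 22 (51.2%, against 41.6%). The NF-Y sequence, CCAAT, was present at 14 (32.6%, against 38.4%) and in footprints at 4 (9.30%, against 9.93%), namely Psma3, Psmb2, Psmb3 and Psmd4. The sequence of nuclear respiratory factor 1 (NRF1), GCGCNTGCG, was present at 7 (16.3%, against 14.3%), and at 6 (14.0%, against 11.3%) it lay in footprints of both libraries: Psma2, Psma3, Psma4, Psmc4, Psmc5 and Psmg1. At Psmb2 a CRE match (TGACGTCA) at -23 to -16 overlapped an NF-Y match at -16 to -12 by 1 bp in 1 footprint of each library. Psmb2 was the only constitutive gene with a CRE match (2.33%, against 3.64% of all genes with a promoter peak). In footprints of both libraries the shares were 2.33% and 3.07%. YY1 matches (AAGATGGCG) were at 4 genes (9.30%, against 3.09%), namely Psmb6, Psmb7, Psmc5 and Psmd7. E-box matches (CACGTG) were at 5 genes (11.6%, against 10.3%) and TATA box matches (TATAAA) at 3 (6.98%, against 5.96%). No test of these shares was made, and the members are not independent samples.

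Of the interferon-related sequences, only 1 match was found in this window at the immunoproteasome genes. At Psmb10 the window lay at the intronic peak, around a start 1406 bp downstream of the protein-coding start. It did not cover the protein-coding start, so the Psmb10 matches given here do not describe the sequence there. At Psmb9 the window lay around a start without a protein-coding transcript, 399 bp downstream of the annotated 5′ end. It covered neither that end nor a protein-coding start, so the same limit holds for the Psmb9 matches. IRF matches (GAAANNGAA) were present at none of Psmb8, Psmb9 and Psmb10. They were present at 8 of 43 constitutive genes (18.6%, against 6.85% of all genes with a promoter peak). In footprints of both libraries they were at 1, Psmb4 (2.33%, against 0.747%), where only part of the match lay inside. The STAT sequence (TTCNNNGAA) was present at Psmb8, positions 5 to 13, outside footprints of either library, and at 5 constitutive genes (11.6%, against 6.46%). The NF-kB sequence (GGGANTTTC) was found at no member, against 1.07% of all genes. What the immunoproteasome genes did hold was the SP/KLF sequence at all 3, in footprints of both libraries at Psmb9 and Psmb10. Psmb8 held a CRE match at -60 to -53 within its long footprint, and Psmb10 an ETS match in footprints of both libraries. At Psmb9 the SP/KLF match lay wholly inside footprints of both libraries. At Psmb10 only part of the ETS match did in each library, and only part of the SP/KLF match in replicate 1. Psmb10 also held a CNC-MAF match at -55 to -47 and Psmb9 an NF-Y match at 27 to 31, each in a footprint of replicate 2 only. Letters absent from a window say nothing about binding elsewhere or under a consensus with other letters.

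**Figure D5:**
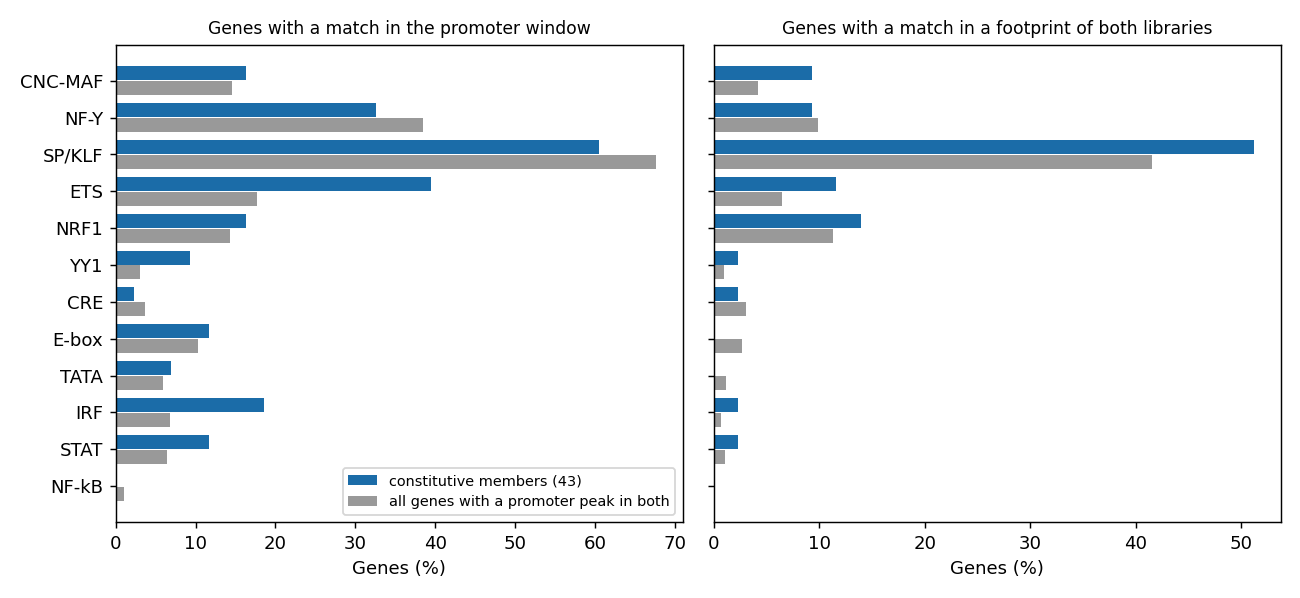
Percentage of the 43 constitutive proteasome genes (blue) and of the 13527 genes with promoter peaks (grey) with a match in the promoter window (left) and with a match in a footprint of both libraries (right). ETS matches are at 39.5% of the proteasome genes and 17.7% of all genes, while NF-Y and SP/KLF matches are at a lower share of the proteasome genes than of all genes.

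CpG content of the same window varied within each class. The median ratio of observed to expected CpG was 0.784 over the constitutive genes and 0.773 over all genes with a promoter peak, with a range over constitutive genes from 0.386 at Psmd1 to 1.14. Among the immunoproteasome genes it was 0.806 at Psmb8, 0.555 at Psmb9 and 0.577 at Psmb10, where the window lay at the intronic peak. At Psmb11, which had no peak, it was 0.0639, and at Psma8, which also had none, it was 0.764.

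Other genes of the pathway were accessible as well. Of 25 listed proteasome factors outside the Psm names, Paaf1 was not found under that symbol. The other 24 all had a promoter peak in both libraries, against 62.3% of all protein-coding genes. Their medians were 5.67 and 5.49, against 3.96 and 4.06 over all genes with a promoter peak. Nfe2l1 had 9.76 and 16.6 and Nfe2l2 had 13.6 and 20.3. The chaperone gene Pomp, whose product helps build the core, had 3.62 and 3.99. The ubiquitin gene Ubb had 11.3 and 14.4, and Adrm1, for a ubiquitin receptor of the cap, had 6.92 and 7.88. Of 20 listed genes of antigen processing and interferon signalling, 19 had a promoter peak in both libraries, against the same 62.3%. Over these 19 genes the medians were 5.76 and 4.50, at the 67.4 and 53.7 percentiles of the 13527 genes. The exception was Ciita, the regulator of MHC class II genes, with 0.399 in replicate 2 alone. Tapbp had 7.85 and 11.1, B2m 5.81 and 4.50, Tap2 4.32 and 2.15, and Nlrc5, the regulator of MHC class I genes, 1.72 and 1.55. The strongest promoter peaks of the immunoproteasome genes lay within the range of this list, but Psmb10 at its protein-coding start (0.958 and 0.719) lay below the lowest listed gene with peaks in both libraries, Ifngr2, at 1.25 and 1.51. No contrast with an immune tissue was available.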

How the data were processed

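DNase-seq of 2 libraries of aged mouse ovary was analysed from the deposited lists, on build mm10. The peak signal is the authors' own, scaled for depth by a factor not stated there. Deposited per-base p-values are false discovery rates of the cut rate, listed only under 0.05. Deposited footprints carry the constant label 0.01, an otherwise undefined score of the authors. Peaks came from each library's own alignments, per the deposited text files; the sources used here do not give the aligner, the callers or the handling of CAST alleles.

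From these, the strongest peak within 500 bp of any GENCODE M21 start of each gene (Python 3.11.15, NumPy 2.4.6, pandas 2.3.3, Matplotlib 3.10.9) gave the promoter signal, with overlaps of at least 1 bp. Symbols with several gene IDs were counted once (21755 IDs, 21728 symbols). Percentiles are shares of genes with lower signal. Sequences came from GRCm38. Overlap and motif functions were tested on simulated data. Named genes were all catalytic and single-tissue genes and, for each role, the 2 highest and 1 lowest by mean rank; sharing partners were added. Genes named for a position, a motif or a list were picked once their values were known. Members, lists and motifs were chosen with earlier results of these data known. No test was made, since there is 1 group.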

Additional observations from a re-analysis of the deposited data

How the results depend on the processing

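Depth is unknown, and 2 libraries of 1 group allow no p-value; the SD given may be technical. The settings varied were the peak list, the number of peaks, the promoter width, the annotated 5′ end alone, protein-coding starts alone (added after seeing the data), summed peaks, members without shared peaks, other footprint and motif windows, and each library alone. Of the comparisons and counts, 80 alternatives kept the value within the SD of the libraries or, for counts, within 1.5 times. A further 12 moved it more and 1 reversed it. Of those for single genes and motif counts, 314 kept the value and 23 moved it more. Signals and counts are never negative, so only a difference could reverse. The direction of Psmb10 against Psmb7 depends on the start taken, as described above. With the annotated 5′ end alone, 42 of the 48 genes had a promoter peak in both libraries and so did 12298 of all genes, against 46 and 13527. With the annotated 5′ end alone, and likewise with protein-coding starts alone, the immunoproteasome median was 4.41 in place of 5.10, the difference from the constitutive median 0.26, and that from Psmb5, Psmb6 and Psmb7 -0.37; Psmb10 moves by construction, to 0.839. With summed peaks, the constitutive median was 6.26, the immunoproteasome median 6.81, their difference -0.12 (reversed) and that from the catalytic counterparts -0.92; the peaks of Psmb10 then sum to 6.81, and the cause of the other shifts was not tested. Without constitutive members that share a peak, the constitutive median was 5.60 and the difference 0.14. Psmb9, which shares its peak with Tap1, was kept in that difference, and no value without it is given. Divided by each library's median, the constitutive median was 1.31, a change of scale. With the whole match required inside footprints, the CNC-MAF count fell from 4 to 2, with no share over all genes to set beside it. With 1 library alone, the difference from the constitutive median ran from 0.02 to 0.06 and that from the catalytic counterparts from -0.67 to -0.51. No paired analysis was possible because there is 1 group.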

Other observations

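In the gene bodies and 10 kb either side of the 48 genes, 58 regions were shared by both libraries and lay away from every annotated start, with a median of 1 per gene, and 21 genes had 0. Psmd9 had the most, at 6. Psmb8 had 1, with a signal of 2.08 in replicate 1 and 3.07 in replicate 2, at chr17:34210581-34210960 (GRCm38), and Psmb10 had 2. Psmb9 had 0.

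The symbols set apart differed from each other. Psmc3ip, whose product acts with recombinases in meiosis and is known for its role in ovarian development, had a promoter signal of 4.93 and 5.86. Psme2b had no promoter peak in either library.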
